A study of Bos taurus with 30 samples.

Results

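GATA4, GATA6, SOX17, SOX7, FOXA1, FOXA2, HNF4A and HHEX are transcription factors known from the hypoblast and from endoderm. They were taken by name, as the rows of the gene count table whose Entrez identifier belongs to these cattle symbols, and all 8 were found among 35092 genes. The hypoblast (primitive endoderm) is the epithelium that lines the inner face of the epiblast and trophoblast in the elongating bovine conceptus and forms the yolk sac. GATA6 acts early in its specification, followed by SOX17 and GATA4, and FOXA2 and HNF4A are found in the epithelium once it has formed. Several of the same factors are used again when definitive endoderm arises from the epiblast at gastrulation, so their RNA in a piece of conceptus can come from either layer.

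The RNA came from Holstein conceptuses flushed from the uterus on day 15. Conceptuses produced in vitro (IVP) came from slaughterhouse oocytes that were matured, fertilised and cultured in the laboratory and transferred as blastocysts to a pair of recipient cows. Conceptuses produced in vivo (IVV) came from a pair of superovulated cows inseminated with semen of the same bull, so procedure and cow cannot be told apart. Each conceptus was cut into the embryonic disc (ED) and pieces of extra-embryonic membranes (EEM), and 30 poly(A) libraries, made without keeping strand, covered 17 conceptuses: 7 IVP and 9 IVV for the ED, and 6 IVP and 8 IVV for the EEM. Both tissues were sequenced for 13 conceptuses, 5 of them IVP and 8 IVV. The single sequenced individuals are called embryos here, as in their labels, and each is a separate replicate.

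Library totals lay between 48713218 and 63037371 counts. Levels are CPM, the counts of a gene relative to the library total after TMM scaling, which can be compared between libraries for the same gene but, since no transcript length enters, not between genes. The epiblast factors NANOG and POU5F1, used to check the tissue labels, were higher in the ED by 8.54 and 5.38 on the log2 scale. SOX2, another epiblast factor, was listed at 0 in all 30 libraries, as were PPARG and SNAI1. The disc pieces also held trophoblast RNA. The summed level of 18 trophoblast genes ran from 13900 to 78200 CPM in ED IVP, 34800 to 52800 in ED IVV, 39000 to 88800 in EEM IVP and 38000 to 69300 in EEM IVV. Much of it came from the keratins KRT8 and KRT18, with means of 14900 and 9570 CPM in ED IVP, beside 7980 for TKDP1 and 7170 for PAG11. The sum thus rests on a few genes and does not measure the share of trophoblast cells. Since a piece holds several cell types, fewer cells of a type and less RNA per cell cannot be told apart. In 12 of the 13 embryos with both tissues, the ED library resembled the EEM library of the same name more than that of any other embryo of the same procedure. Libraries of different procedures were not compared in this way. The exception was the IVP embryo IVPF13. Its correlation of deviations from the group means over 14506 genes was -0.24 with its own partner and 0.46 with the best other IVP embryo. The ED to EEM differences over all embryos and the correlations between tissues of the 8 factors are therefore also given without IVPF13. Of the interactions only that of SOX17 is, and the differences within IVP embryos include IVPF13.

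XIST, the noncoding RNA that coats the inactive X chromosome of female cells, nearly followed the procedure. It stayed under 1 CPM in all IVP libraries and in the IVV embryos VE3 and VE5, and it lay between 44.9 and 151 CPM in the ED and between 96.6 and 421 CPM in the EEM of the other IVV embryos. XIST level and procedure can therefore be told apart through VE3 and VE5 alone, and values of these embryos are given for SOX7 and HHEX.

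All 8 factors were detected in every library and passed the filter on low counts in both tissues. The zinc finger factors GATA4 (Entrez 327716) and GATA6 (654400) overlapped in level between the 4 groups. GATA4 in the ED ranged from 17.1 to 77.6 CPM around a median of 28 in IVP embryos and from 24.1 to 49.7 around 35.4 in IVV embryos. In the EEM, GATA4 ranged from 16.6 to 51.4 around 27.1 in IVP and from 19.6 to 33.9 around 26.9 in IVV. The IVV embryos thus fell inside the IVP range in each tissue. GATA6 gave 49.6 to 164 CPM around a median of 58.8 in ED IVP and 62 to 116 around 95.3 in ED IVV. In the EEM it gave 37.7 to 139 around 91.3 in IVP and 62 to 83.3 around 75.2 in IVV. IVP embryos thus lay on either side of the IVV range. In the ED 4 of 7 were below it for GATA6 and 2 above. The embryos IVP14 and IVPF15 stood at the top of the ED range for both genes, above every IVV embryo.

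SOX17 (534010), an HMG-box factor that stabilises the hypoblast fate, ranged from 3.69 to 73.1 CPM around a median of 26.1 in ED IVP and from 26.5 to 78.7 around 42.2 in ED IVV. In the EEM the range was 6.13 to 45 around 30.7 in IVP and 19.4 to 57.1 around 21.5 in IVV. The lowest values belonged to IVP embryos in both tissues. IVPF14 was low on both sides, with 4.96 CPM in the ED and 6.13 in the EEM, whereas IVPF13 was low in the ED alone, with 3.69 CPM against 34.7 in the EEM.

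The forkhead factor FOXA1 (503579) varied most among IVP embryos. It ranged from 1.43 to 39.8 CPM around a median of 11.8 in ED IVP and from 6.16 to 20.8 around 16.8 in ED IVV. In the EEM it ranged from 2.67 to 27.8 around 19 in IVP and from 6.01 to 26.9 around 19.6 in IVV. IVPF14 was the lowest embryo for FOXA1 in both tissues. Its relative FOXA2 (101906272), a pioneer factor that opens chromatin in endoderm, covered a narrower span, from 6.7 to 19.5 around 7.73 in ED IVP and from 6.39 to 13.5 around 8.76 in ED IVV. In the EEM FOXA2 lay between 4.52 and 11.1 around 6.08 in IVP and between 4.91 and 8.52 around 6.15 in IVV.

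HNF4A (509200), a nuclear receptor needed for the visceral endoderm of the mouse, ranged from 52.9 to 179 CPM around a median of 71.3 in ED IVP and from 52 to 106 around 71.2 in ED IVV. In the EEM it ranged from 26.8 to 81.8 around 44.4 in IVP and from 29.5 to 62.8 around 44.5 in IVV. The medians of the procedures lay close together within each tissue, and those of the tissues lay apart.

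HHEX (539542), a homeobox repressor of anterior visceral endoderm and later of liver, and SOX7 (541256), an HMG-box factor of parietal endoderm and early endothelium, behaved otherwise. HHEX ranged from 2.1 to 7.33 CPM around a median of 2.92 in ED IVP and from 2.33 to 14.1 around 6.64 in ED IVV. In the EEM it ranged from 1.44 to 6.1 around 3.93 in IVP and from 2.42 to 12.4 around 10.1 in IVV. SOX7 was a low-count gene, with 0.289 to 1.67 CPM around 0.44 in ED IVP and 0.742 to 2 around 1.49 in ED IVV. In the EEM it gave 0.183 to 0.678 around 0.415 in IVP, which are 9 to 31 counts a library, and 0.594 to 2.8 around 1.7 in IVV, or 33 to 122 counts.

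**Figure D1:**
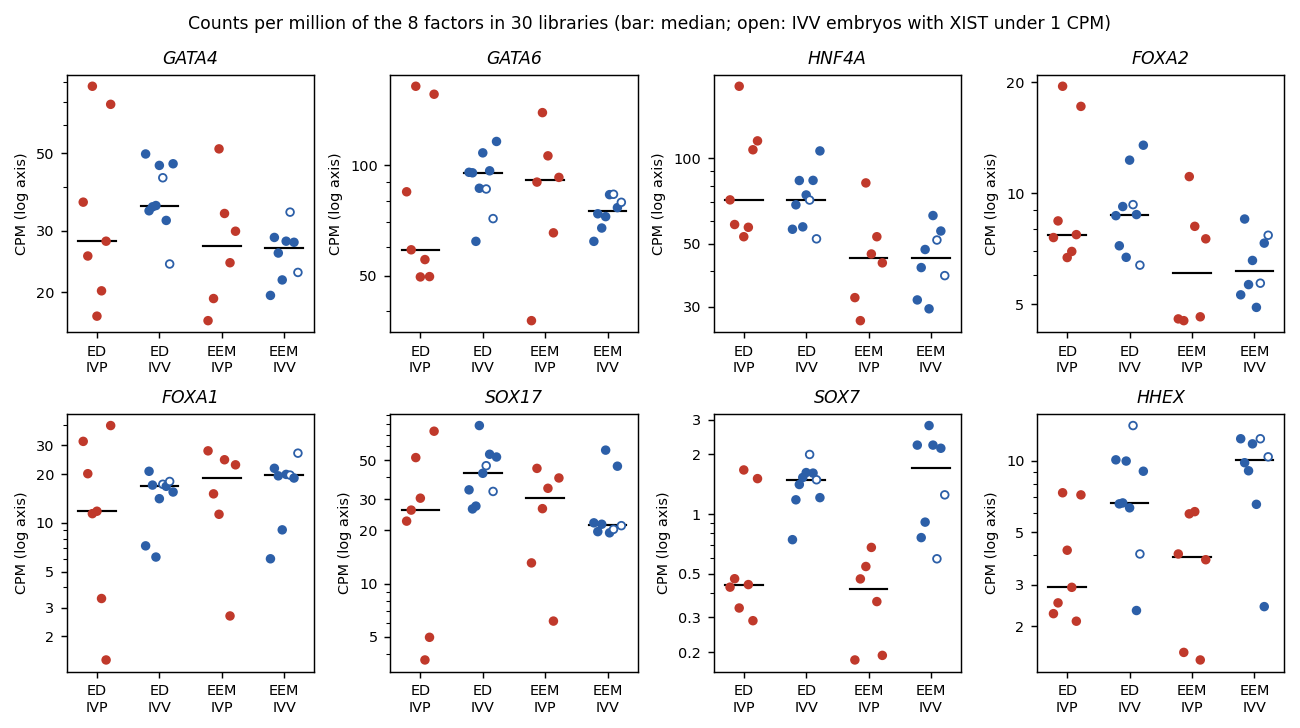
TMM-scaled CPM (log axis) of the 8 factors in each of 30 libraries, by tissue and procedure, with a bar at the group median and open circles for the IVV embryos VE3 and VE5, whose XIST was under 1 CPM. The medians of SOX7 and HHEX are lower in IVP than in IVV in both tissues, and IVP and IVV overlap for all 8 factors.

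The first comparison asked whether these factors differed between the procedures in each tissue. The authors reported that the IVP conceptuses were shorter than the IVV ones, and the labels give no length for single embryos. The part of length or stage in the differences below was not tested. In the EEM of IVP embryos, SOX7 and HHEX were lower than in IVV embryos, and in the ED SOX7 was lower. The remaining factors did not pass the test in either tissue. Of 14718 genes tested in the EEM, 3.81% were called in either direction, 1.52% as lower and 2.29% as higher in IVP, against 2 of the 8 factors, both lower. Of 15733 genes tested in the ED, 6.34% were called, 4.95% as lower and 1.4% as higher in IVP, against 1 of the 8. The median log2 fold change of the 8 factors was 0.01 in the EEM and -0.13 in the ED, beside 0.00 and -0.01 for all genes tested.

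The mean of SOX7 in the EEM was 0.405 ± 0.197 CPM (SD) over 6 IVP embryos. Over 8 IVV embryos it was 1.62 ± 0.833 CPM, or 3.99 times as much. In 5 of 6 IVP embryos it lay below the lowest IVV embryo, and in 7 of 8 IVV embryos above the highest IVP embryo. The groups overlapped only through IVPF13 with 0.678 CPM and VE3 with 0.594 CPM. The edgeR quasi-likelihood test gave a log2 fold change of -1.85 (SE 0.38, adjusted p = 0.00457). SOX7 remained called when any single embryo was left out.

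The ED gave a SOX7 mean of 0.734 ± 0.588 CPM (SD) over 7 IVP embryos, below the 1.42 ± 0.352 CPM of 9 IVV embryos. The distribution in IVP was split, with 5 embryos between 0.289 and 0.471 CPM, below all IVV embryos, and with IVPF10 at 1.67 and IVPF15 at 1.51 inside the IVV range. The log2 fold change was -1.24 (SE 0.36, adjusted p = 0.0421). This call was lost when any of IVP10, IVP11, IVP14, IVPF13, IVPF14, VE26, VE28, VE29 or VE3 was left out, with adjusted p between 0.0506 and 0.102. The summed level of 18 streak and mesoderm genes in the ED was lower in IVP as well, 102 to 248 CPM against 156 to 397 CPM in IVV, and its part in the SOX7 difference was not tested.

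The mean of HHEX in the EEM was 3.82 ± 2.04 CPM (SD) over the 6 IVP embryos and 9.36 ± 3.42 CPM over the 8 IVV embryos, a ratio of 2.45. In 7 of 8 IVV embryos it was above the highest IVP embryo, the exception being VE4 with 2.42 CPM. The log2 fold change was -1.28 (SE 0.36, adjusted p = 0.0444). This call was lost without any of IVP10, IVP11, IVPF14, IVPF9, VE24, VE26, VE28, VE29, VE3 or VE5, where the adjusted p reached at most 0.127.

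HHEX in the ED had a mean of 4.07 ± 2.28 CPM (SD) over 7 IVP embryos, beside 7.68 ± 3.53 CPM over 9 IVV embryos. Its log2 fold change of -1.04 (SE 0.38) was close to that of the EEM but missed the threshold (adjusted p = 0.113 by edgeR). VE4 was the lowest IVV embryo here as well, with 2.33 CPM. Leaving out single embryos gave adjusted p from 0.0234, without VE4, to 0.253, and only 1 of these 16 fits called HHEX.

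Since XIST nearly followed the procedure, its values are set beside both genes. VE3 and VE5, the IVV embryos with XIST under 1 CPM, had 12.4 and 10.4 CPM of HHEX in the EEM, above all IVP embryos, and 14.1 and 4.04 CPM in the ED. Their SOX7 was 0.594 and 1.25 CPM in the EEM and 2 and 1.49 CPM in the ED, where the IVP embryos spanned 0.289 to 1.67. With XIST as a covariate neither gene was called in the EEM (SOX7 log2 fold change -1.55, adjusted p = 0.302, and HHEX -1.39, adjusted p = 0.232, by edgeR), and SOX7 was not called in the ED (-1.46, adjusted p = 0.0983). Among embryos with XIST under 1 CPM alone, the EEM log2 fold changes were -1.19 for SOX7 (adjusted p = 0.626) and -1.60 for HHEX (adjusted p = 0.244), which rests on 2 IVV embryos.

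Markers of endothelium and blood, where SOX7 is also used, were summed over 16 genes. In the EEM the sum ran from 17 to 22.9 CPM around a median of 19.3 in IVP and from 10.4 to 17.6 CPM around 12.9 in IVV, the opposite order from SOX7. SOX18 is part of the sum, with means of 4.99 CPM in IVP and 1.47 CPM in IVV there. In the ED the sum ran from 13.8 to 29.2 CPM around 16.9 in IVP and from 9.26 to 63.7 CPM around 32.1 in IVV, the same order as SOX7. Of 11 genes of the list tested there, FLI1, KDR and LMO2 were called as lower in IVP. A further 2 were called as higher, among them SOX18 (log2 fold change 1.97, adjusted p = 0.0159 by edgeR). With the level of the 16 genes as a covariate in place of the surrogate variable, the SOX7 log2 fold change was -3.33 (adjusted p = 0.00414) in the EEM and -0.79 (adjusted p = 0.438) in the ED by edgeR. In the EEM the IVP and IVV ranges of the sum overlapped only between 17 and 17.6 CPM. This covariate and procedure can therefore hardly be told apart there, and the size of -3.33 depends on that. The embryonic globin HBE4 was at 0 in every group, and GATA1 in the EEM.

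None of the other 6 factors was called in either tissue. In the EEM the largest estimate was that of GATA6, a log2 fold change of 0.22 with a 95% interval from -0.22 to 0.67. HNF4A gave 0.01 with an interval from -0.45 to 0.46, and GATA4 gave 0.12 with an interval from -0.33 to 0.56. In the ED, SOX17 had the largest estimate among these 6, with -0.74 (SE 0.44, adjusted p = 0.41), and 4 of 7 IVP embryos lay below all IVV embryos. HNF4A gave 0.24 (SE 0.23), GATA6 -0.18 (SE 0.26), FOXA1 0.15 (SE 0.42), FOXA2 0.11 (SE 0.26) and GATA4 -0.08 (SE 0.29) in the ED.

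**Figure D2:**
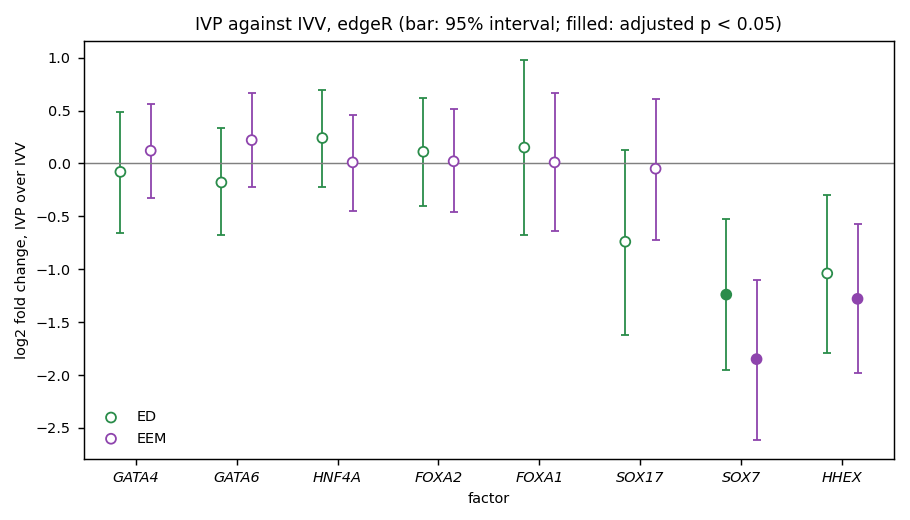
Log2 fold change of IVP over IVV for the 8 factors in ED and EEM, from edgeR with 1 surrogate variable, with bars for the 95% interval and filled points where the adjusted p was under 0.05. Filled points are SOX7 in both tissues, at -1.24 and -1.85, and HHEX in the EEM, at -1.28.

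IVP embryos were also more unequal among themselves. The SD of log2 CPM among IVP embryos exceeded that among IVV embryos for 7 of 8 factors in each tissue, against 67.8% of all genes tested in the ED and 43% in the EEM. HHEX was the exception in the ED, with 0.76 in IVP and 0.77 in IVV, and SOX7 in the EEM, with 0.71 and 0.82. The median SD of the 8 factors was 0.80 in ED IVP and 0.38 in ED IVV, beside 0.66 and 0.51 for all genes tested. In the EEM it was 0.68 and 0.50, beside 0.52 and 0.54. FOXA1 and SOX17 spread furthest. Between the lowest and highest ED IVP embryo, FOXA1 differed 27.9-fold and SOX17 19.8-fold, against 3.37-fold and 2.97-fold among ED IVV embryos. These spreads are a description, and no test of the difference in spread was made.

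The second comparison set ED against EEM within the same embryos, with the embryo as a block. HNF4A, FOXA2 and GATA4 were higher in the ED, and the other 5 factors were not called. Of 16784 genes tested, 24.5% were called, 14.4% as higher in the ED and 10.1% as higher in the EEM, against 3 of 8 factors, all higher in the ED. The median log2 fold change of the 8 factors was 0.18, beside -0.09 for all genes tested. The summed trophoblast level also differed, with medians of 42300 (IVP) and 39400 CPM (IVV) in the ED and 60400 and 60000 CPM in the EEM, and its part in these differences was not tested.

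HNF4A was higher in the ED of all 13 embryos, as were 5.33% of genes. The ED to EEM ratio had a median of 1.75 and ran from 1.18 to 2.21, with a fitted log2 difference of 0.75 (SE 0.10, adjusted p = 1e-05 by edgeR). Among the 5 IVP embryos the ratio was 2.21 in IVP10, 2.18 in IVP11, 2.18 in IVP14, 1.24 in IVPF13 and 2.03 in IVPF14. HNF4A was called within IVV embryos (0.64, SE 0.12, adjusted p = 0.000576, where 22.1% of genes were called) and within IVP embryos (0.91, SE 0.16, adjusted p = 0.00111, where 4.83% were called).

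GATA4 was higher in the ED of 12 of 13 embryos, with ratios of 0.6 to 2.54 and a log2 difference of 0.43 (SE 0.13, adjusted p = 0.0242). The embryo that went the other way was IVPF13, and without VE19 the adjusted p was 0.0504. FOXA2 was higher in the ED of 10 of 13 embryos, with ratios of 0.83 to 2.5 and a log2 difference of 0.47 (SE 0.14, adjusted p = 0.0213). Within one procedure, GATA4 was called in IVV embryos (0.52, adjusted p = 0.0358) and not in IVP embryos (0.29, adjusted p = 0.55), and FOXA2 was called in neither (0.41, adjusted p = 0.121, and 0.56, adjusted p = 0.205). Without the embryo block, HNF4A alone was called, with adjusted p = 0.13 for GATA4 and 0.0934 for FOXA2.

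FOXA1 gave an estimate of the opposite sign. Its CPM was higher in the ED of 4 of 13 embryos, among them IVP14 with 11.4 CPM against 11.3 in the EEM, and the log2 difference was -0.36 (SE 0.19, adjusted p = 0.177). HHEX (-0.26, SE 0.16), SOX7 (-0.06, SE 0.25) and GATA6 (0.09, SE 0.14) were not called. SOX17 gave 0.27 (SE 0.26, adjusted p = 0.473) over all embryos. Within IVV embryos, where 8 of 8 had more in the ED, it gave 0.64 (adjusted p = 0.121), and a fit to IVV embryos only called it (0.70, adjusted p = 0.000993). Without IVPF13, whose tissues resembled each other least, SOX17 was called as well (0.48, adjusted p = 0.0276), and GATA4 (0.52, adjusted p = 0.00233), FOXA2 (0.53, adjusted p = 0.0104) and HNF4A (0.78, adjusted p = 7.24e-06) were called again. FOXA1 (-0.19), HHEX (-0.19), SOX7 (-0.01) and GATA6 (0.17) were not called without it either.

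**Figure D3:**
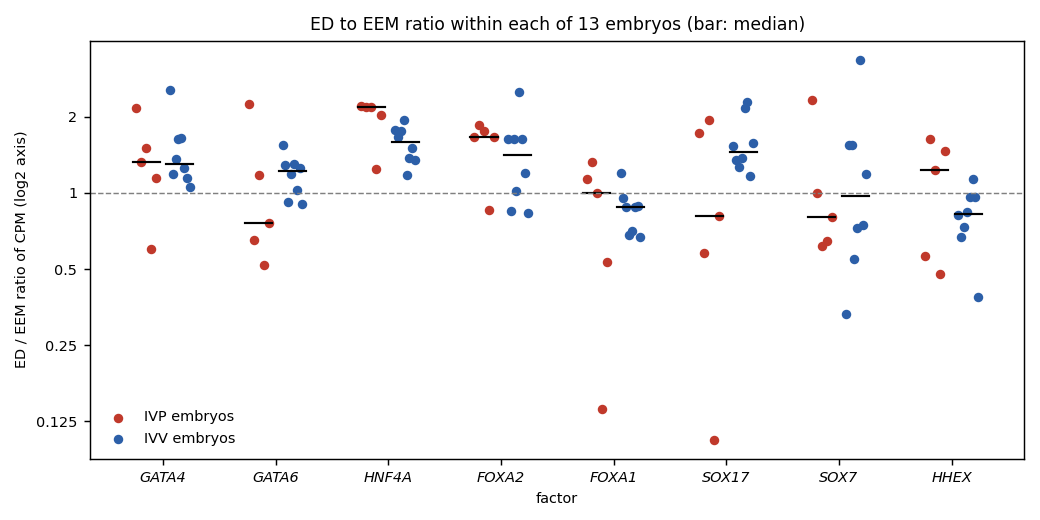
Ratio of CPM in ED to CPM in EEM of the same embryo (log2 axis) for the 8 factors in 5 IVP and 8 IVV embryos, with a bar at each median and a dashed line at equality. HNF4A lies above the line in all 13 embryos, and SOX17 in 8 of 8 IVV but 2 of 5 IVP embryos.

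Whether the ED to EEM difference itself depended on the procedure was tested by an interaction term. None of the 8 factors was called, against 1.02% of 16784 genes in edgeR, and 1 factor, SOX17, had an unadjusted p under 0.05. DESeq2 and limma also called 0 of 8. For SOX17 the log2 interaction was -1.09 (SE 0.49, adjusted p = 0.439). Its ED to EEM ratio was 1.73 in IVP10, 0.58 in IVP11, 1.94 in IVP14, 0.106 in IVPF13 and 0.808 in IVPF14, and from 1.17 to 2.29 in the IVV embryos. Without IVPF13 the interaction of SOX17 was -0.51 (adjusted p = 0.664).

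Which factors rose and fell together from embryo to embryo was examined next, with log2 CPM centred within each procedure. Of 56 pairs, 28 in each tissue, 6 were called after adjustment, and all joined GATA4, GATA6, FOXA2 and HNF4A. In the ED 5 of 28 pairs (17.9%) had r of 0.77 or more, the lowest value called there, against 0.994% of all pairs among 14506 genes. In the EEM 1 of 28 (3.57%) reached 0.83, against 0.51% of all pairs. Over the 28 pairs r had a median of 0.49 in ED libraries and 0.26 in EEM libraries, beside 0.00 for all pairs in each tissue. These shares are a description, since pairs share genes and embryos. In the ED of 16 embryos, GATA4 followed GATA6 with Pearson's r = 0.90 and Spearman's rho = 0.85 (permutation test within procedure, p = 0.00047, adjusted p = 0.00877). The relation was present in both procedures, with r = 0.96 in IVP and 0.61 in IVV, and r was 0.85 without the 2 embryos farthest from the median. GATA4 and FOXA2 gave r = 0.88 and rho = 0.80 (permutation p = 0.00018, adjusted p = 0.00504), with 0.94 in IVP and 0.73 in IVV, and 0.82 without the farthest 2 embryos. FOXA2 and HNF4A gave r = 0.83 and rho = 0.82 (permutation p = 8e-05, adjusted p = 0.00448), with 0.85 in IVP and 0.78 in IVV, and 0.63 without the farthest 2.

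The remaining pairs were less secure. GATA6 and FOXA2 in the ED gave r = 0.84 and rho = 0.75 (permutation p = 0.00183, adjusted p = 0.0205), which fell to 0.47 without the 2 embryos farthest from the median. GATA4 and HNF4A gave r = 0.77 and rho = 0.62 in the ED (permutation p = 0.00382, adjusted p = 0.0357), with 0.88 in IVP and 0.36 in IVV, and the rho was not called (adjusted p = 0.128 by permutation). In the EEM of 14 embryos, GATA4 and HNF4A gave r = 0.83 and rho = 0.71 (permutation p = 0.00104, adjusted p = 0.0146), with 0.88 in IVP and 0.78 in IVV and 0.73 without the farthest 2, while rho missed the threshold (adjusted p = 0.093). GATA4 and GATA6 in the EEM had r = 0.81 (permutation, adjusted p = 0.0775). SOX7 stood outside this set, with r from -0.18 to 0.05 against GATA4, GATA6, FOXA2 and HNF4A in the ED.

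**Figure D4:**
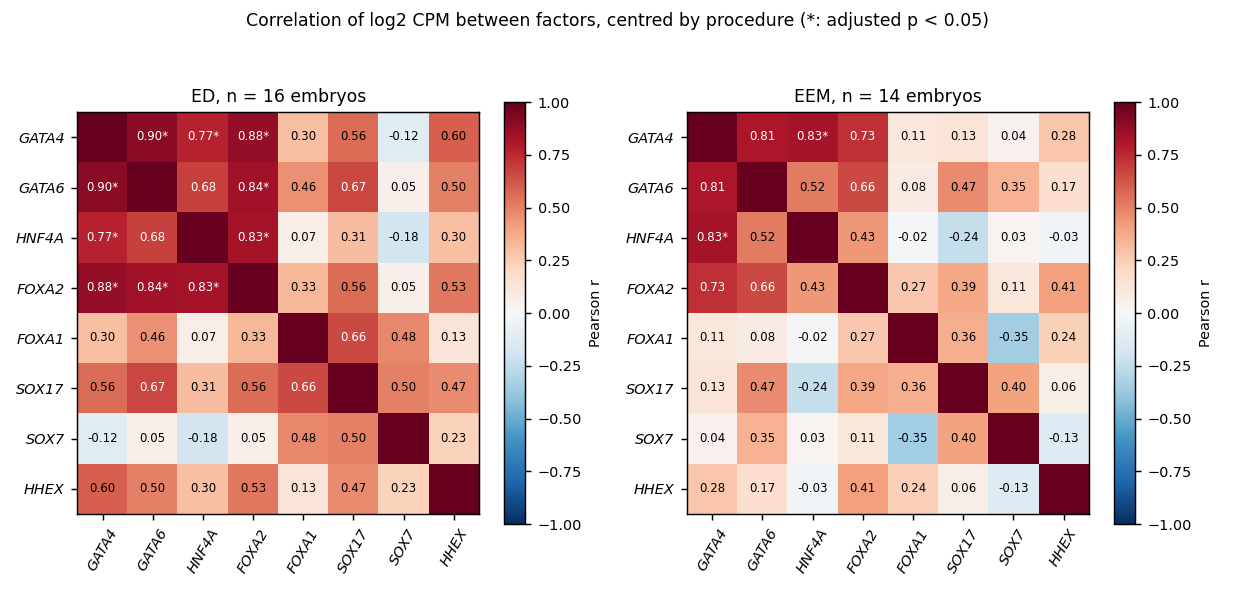
Pearson's r of log2 CPM between each pair of factors in the ED of 16 and the EEM of 14 embryos, centred within procedure, with an asterisk where the adjusted permutation p was under 0.05. The block of GATA4, GATA6, HNF4A and FOXA2 holds all 6 called pairs, 5 in the ED and 1 in the EEM.

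Each ED level was then set against the EEM level of the same embryo. These 8 relations over 13 embryos were added after the values had been seen. HNF4A, HHEX and FOXA1 were called, with r of 0.73 or more, which 26.5% of 14506 genes also reached. The median r was 0.42 for the 8 factors and 0.57 for all genes, so a relation between the tissues was common among genes. Without IVPF13 the order of the medians turned, with 0.71 for the 8 factors and 0.62 for all genes. Then 4 of 8 factors reached r of 0.79 or more, against 24.6% of genes. HNF4A gave r = 0.82 and rho = 0.78 (permutation p = 0.00296, adjusted p = 0.0118), with 0.79 in the IVV embryos 0.61 without the 2 farthest embryos and 0.92 without IVPF13. HHEX gave r = 0.73 and rho = 0.79 (permutation p = 0.00244, adjusted p = 0.0118), with 0.83 in the IVV embryos 0.75 without the farthest 2 and 0.79 without IVPF13. VE4 was the lowest IVV embryo for HHEX in both tissues. FOXA1 gave r = 0.74 (permutation p = 0.0145, adjusted p = 0.0386) but rho = 0.61 (adjusted p = 0.17), with 0.92 among IVV embryos, and 0.95 without IVPF13. SOX17 gave r = 0.42 with all 13 embryos, 0.80 without IVPF13 and 0.82 in the IVV embryos. For SOX7 r was -0.19, and -0.25 without IVPF13. GATA4, GATA6 and FOXA2 gave 0.42, 0.30 and 0.28, with 0.63, 0.43 and 0.42 without IVPF13 but -0.07, -0.47 and -0.62 without the 2 farthest embryos, and none of the 3 was called. Without the farthest 2, r was 0.93 for FOXA1, 0.63 for SOX17 and -0.20 for SOX7.

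**Figure D5:**
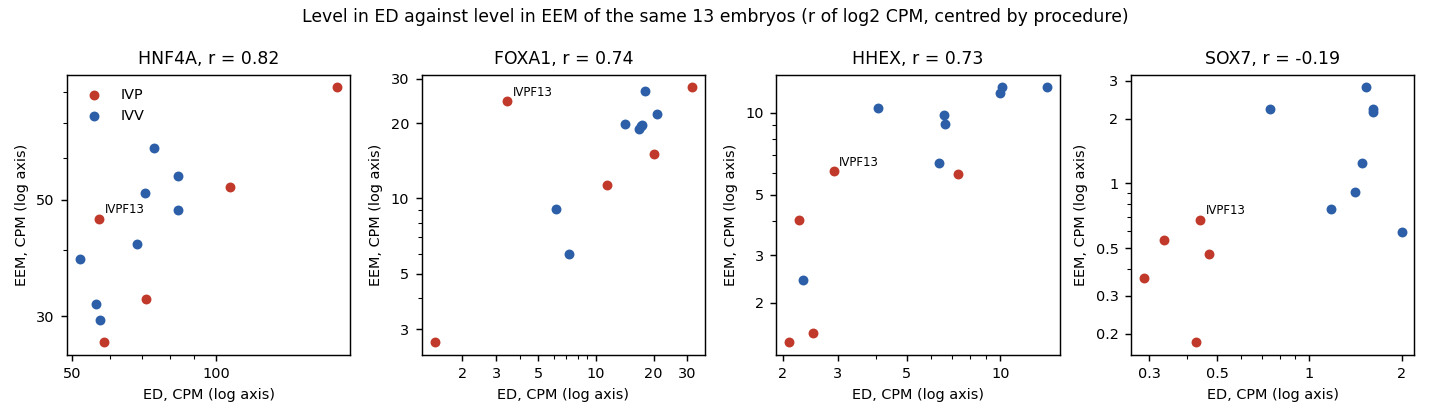
CPM in the EEM against CPM in the ED of the same 13 embryos (log axes) for HNF4A, FOXA1, HHEX and SOX7, with Pearson's r of log2 CPM centred by procedure. HNF4A, FOXA1 and HHEX line up apart from the labelled embryo IVPF13 in FOXA1, and SOX7 does not, with r = -0.19.

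The genes most like each factor were sought over 30 libraries, with log2 CPM centred within the 4 groups. These are correlations chosen as the highest among 16679 genes, and the libraries share embryos, so they carry no test. For GATA4 the most similar gene was GATA6 itself, with r = 0.87, and FOXA2 had rank 3 with r = 0.83. Outside the 8, the closest to GATA4 was SPI1 (r = 0.83), a myeloid ETS factor, and the closest to GATA6 was PINK1 (0.88), a mitochondrial kinase. HNF4A was closest to TFCP2L1 (0.89), a grainyhead-like factor of epithelia and pluripotent cells, followed by SCMH1 (0.86) and TACC2 (0.85). FOXA1 had the tightest companions, DGKD (0.96), a diacylglycerol kinase, HIC2 (0.94) and OSBP (0.93), an oxysterol-binding protein. For SOX17 they were CCDC102A (0.89), NYAP1 (0.89) and NTN3 (0.87), and for FOXA2 they were TJAP1 (0.83), TBC1D30 (0.81) and PINK1 (0.81). HHEX and SOX7 had looser ones. PLCD4 reached 0.79 with HHEX, and ARID5A 0.79, BBC3 0.77 and N4BP3 0.74 with SOX7.

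Other genes of the pathway were counted in lists. Among 17 other endoderm factors, 4 of 16 tested were lower and 1 higher in IVP in the ED. MIXL1, a homeobox factor of the primitive streak, had a log2 fold change of -2.21 (SE 0.36, adjusted p = 0.000474 by edgeR). EOMES, a T-box factor of mesendoderm, had -1.87 (SE 0.43, adjusted p = 0.00974), and GATA5, a further GATA factor of endoderm, -1.81 (SE 0.42, adjusted p = 0.0107). SOX18, the remaining member of the SOX17 and SOX7 subfamily, was higher in IVP, by 1.97 in the ED (SE 0.49, adjusted p = 0.0159) and by 2.65 in the EEM (SE 0.39, adjusted p = 0.000146), where it was the only gene called among 11 tested. GATA5 and the ED difference of SOX18 were not called with XIST as a covariate (adjusted p = 0.0898 and 0.164), while their log2 fold changes among embryos with XIST under 1 CPM were -1.77 and 2.33. Between tissues, 7 of 17 were higher in the ED and 1 in the EEM, with EOMES at 10.38, GSC at 6.93, GATA5 at 3.82 and OTX2 at 3.40 on the log2 scale. EOMES and GSC were listed at 0 in all EEM libraries of IVP embryos, so that the sizes of their fitted differences depend on the prior count.

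Signals known to act upstream of the hypoblast and endoderm were lower in IVP where they were called. In the ED these were BMP4 (-1.74, SE 0.27, adjusted p = 0.000241) and WNT3 (-3.06, SE 0.47, adjusted p = 0.000258), 2 of 14 tested. In the EEM they were NODAL (-2.48, SE 0.44, adjusted p = 0.00107) and BMP4 (-1.04, SE 0.30, adjusted p = 0.046), 2 of 13 tested. NODAL had at most 5 counts in any EEM library of IVP embryos and at most 32 in those of IVV embryos. The sizes of its fitted differences between procedures and between tissues therefore depend on the prior count. BMP4 in the EEM was not called with XIST as a covariate (adjusted p = 0.498) and was called in 14 of 31 settings, with a log2 fold change of -1.02 among embryos with XIST under 1 CPM. In the ED 9 of 16 were higher than in the EEM and 1 was lower, with GDF3 at 6.46 and NODAL at 4.32 on the log2 scale. Of the cofactors, 0 of 6 were called between procedures in the ED by edgeR, with 1 at an unadjusted p under 0.05, 1 called by DESeq2 and 0 by limma. PPARGC1A, a coactivator of HNF4A, had -0.84 there (adjusted p = 0.0758). In the EEM PPARGC1A was lower (-1.07, SE 0.27, adjusted p = 0.0229). It was not called with XIST as a covariate (adjusted p = 0.541), and its log2 fold change among embryos with XIST under 1 CPM was -1.08. PRDM1, a repressor, was higher in the ED than in the EEM by 1.48 (SE 0.18, adjusted p = 4.26e-06), 1 of 6.

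Products of the hypoblast epithelium were counted next. Of 11 basement membrane genes, which the hypoblast lays down as laminin, nidogen and collagen, 0 were called between procedures in either tissue by edgeR, DESeq2 or limma, with 1 in the ED and 3 in the EEM at an unadjusted p under 0.05. Their median log2 fold change was 0.34 in the ED and 0.37 in the EEM, beside -0.01 and 0.00 for all genes tested. NID2 (-0.63, SE 0.13), LAMA1 (-0.44, SE 0.10) and LAMC1 (-0.34, SE 0.09) were higher in the EEM than in the ED, opposite in direction to HNF4A, FOXA2 and GATA4. Of the plasma protein genes, many of them known HNF4A targets in liver, AHSG was lower in IVP in the ED (-1.75, SE 0.37, adjusted p = 0.00529), 1 of 13 tested. It was not called with XIST as a covariate (adjusted p = 0.663), and its log2 fold change was -0.57 among embryos with XIST under 1 CPM. In the EEM, TTR, the thyroxine carrier, was lower (adjusted p = 3.21e-05, and 1.72e-05 with XIST), with at most 1 count in any IVP library and a mean of 2.18 CPM in IVV, so that the size of its fitted difference depends on the prior count. FGG, a fibrinogen chain, was higher in the EEM (1.92, SE 0.43, adjusted p = 0.00782), 2 of 11 with TTR. FGG was not called with XIST as a covariate (adjusted p = 0.319) and gave 1.19 among embryos with XIST under 1 CPM. The median log2 fold change of the plasma protein genes tested was -1.29 in the ED and 0.14 in the EEM, beside -0.01 and 0.00 for all genes. Between tissues 6 of 15 were higher in the ED, led by TF (7.30), APOA2 (2.19), APOB (3.75) and SERPINA1 (2.91), and 2 in the EEM. Among 6 endocytic genes, CUBN, the cubilin receptor, was lower in the ED of IVP embryos (-2.42, SE 0.65, adjusted p = 0.0261) and higher in the ED than in the EEM (4.36, SE 0.55), and none of the other 5 was called in these comparisons. In the EEM 0 of 5 endocytic genes were called between procedures by edgeR, 1 by DESeq2 and 0 by limma, with 2 at an unadjusted p under 0.05. CUBN was not called between procedures with XIST as a covariate (adjusted p = 0.999), and with embryos of XIST under 1 CPM alone its log2 fold change was 0.28.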

How the data were processed

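Poly(A) RNA of 30 libraries was sequenced by the authors as paired 100-base DNBSEQ reads without strand, filtered with SOAPnuke, aligned to ARS-UCD1.3 with STAR 2.7.0b and counted per gene with featureCounts (Subread 2.0.3). The submitters' processing notes also list FastQC 0.11.9 and Trimmomatic. The authors deposited raw read counts per Entrez gene, not normalized. Entrez identifiers were matched to RefSeq symbols (31630 of 35092). No annotated gene overlapped any of the 8 factors. Groups and embryos came from the labels, which give neither sex nor morphology for each embryo.

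Counts were filtered with filterByExpr (minimum count 10), scaled by TMM and tested by edgeR 4.0.16 (quasi-likelihood, R 4.3.3) with Benjamini-Hochberg adjustment over all genes tested and a threshold of 0.05. IVP was set against IVV within each tissue with 1 surrogate variable (sva 3.50.0). ED was set against EEM with the embryo as a block, since embryo names pair the libraries (correlation of paired deviations -0.24 to 0.72, highest for the own partner in 12 of 13 among embryos of the same procedure). Intervals are 95% from the SE. The model was tested on simulated data. Correlations used log2 CPM (prior count 2) and 1e+05 permutations within procedure. DESeq2 1.42.0, limma 3.58.1, other scalings, filters and covariates, and leaving out each embryo were alternatives. All 8 factors were named, with at most 4 genes of each list by smallest p in a comparison, and at most 3 of the genes outside the 8 most similar to each factor. The factors and lists were chosen with earlier results of these data known. P-values rest on separate embryos.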

Additional observations from a re-analysis of the deposited data

How the results depend on the processing

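SOX7 in the EEM kept its direction under 16 alternatives (-3.33 to -1.19) and was called in 14, and HHEX in the EEM kept it under 17 (-1.88 to -1.15) and was called in 7. SOX7 in the ED was called in 9 of 17 and HHEX in the ED in 2 of 17. HNF4A between tissues was called in 10 of 10, GATA4 in 8 and FOXA2 in 7. No factor fell under the filter on low counts, so the planned count of such factors gave no value. Except as the number of embryos or genes shrank, the cause of each move below was not tested, and the endothelial covariate, the other inputs to the surrogate variable, the embryos with low XIST and the correlations between tissues were chosen after seeing the data.

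Of the 8 factors, the number called between procedures in the ED, 1 as reported, was 0 with no surrogate variable, with 2, with XIST, with the letter that ends the library titles (A or C), with the trophoblast or endothelial level, with the surrogate variable from raw counts, or with embryos of low XIST only, and 2 (SOX7 and HHEX) with DESeq2 or library totals. It was 0 to 2 when single embryos were left out. In the EEM, 2 as reported, it was 0 with XIST, with embryos of low XIST only, or with at least 10 counts in every library, where SOX7 was not tested. It was 1 (SOX7) with the trophoblast or endothelial level, with the surrogate variable from raw counts or CPM, with embryos of both tissues, with limma voom or with halved counts, and 1 to 2 when single embryos were left out. Between tissues, 3 as reported, it was 1 (HNF4A) without the replicate block or in IVP embryos only, 3 (GATA4, SOX17 and HNF4A) in IVV embryos only, and 2 to 4 when single embryos were left out. The interaction stayed at 0 of 8 in each of these fits. All 6 called correlations stayed called with a prior count of 0.5 (6 called) or library totals (8 called). In IVV embryos alone the correlation between tissues was 0.06 for GATA4, 0.82 for SOX17 and -0.78 for FOXA2.

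Among GATA4, GATA6, SOX17, SOX7, FOXA1, FOXA2, HNF4A and HHEX, signs turned only in estimates that were not called as reported. Outside these factors, CUBN was called as lower in the ED of IVP embryos (-2.42) but became 0.28 with low XIST only. In the ED between procedures, GATA4 became 0.12 with 2 surrogate variables, 0.16 with XIST, 0.01 with the endothelial level and 0.21 with low XIST only, and GATA6 0.04, 0.10, 0.01 and 0.14 in the same order. FOXA1 became -0.10 with the title letter, -0.08 with low XIST only, -0.57 with limma voom and -0.09 with library totals, and FOXA2 -0.05 with the last. In the EEM, SOX17 became 0.19 with 2 surrogate variables, 0.23 with XIST, 0.07 with the title letter, 0.39 with low XIST only and 0.01 with at least 10 counts. HNF4A became -0.05 with 2 surrogate variables, -0.00 with the title letter, DESeq2 or its size factors, -0.02 with limma voom, and -0.01 with the surrogate variable from CPM or no filter. FOXA1 became -0.04 with no surrogate variable, -0.10 with the trophoblast level, -0.00 and -0.03 with the surrogate variable from raw counts and CPM, -0.44 with low XIST only, -0.01 with embryos of both tissues, -0.31 with limma voom and -0.03 with no filter. FOXA2 became -0.08 with the endothelial level, -0.00 with the surrogate variable from CPM, -0.01 with low XIST only and -0.03 with limma voom. Between tissues, SOX7 became 0.05 in IVV embryos only and 0.16 with library totals, and in IVP embryos only GATA6 became -0.10 and SOX17 -0.40. Leaving out single embryos gave ranges, in the ED, of -0.27 to 0.06 for GATA4, -0.27 to 0.36 for FOXA1 and -0.04 to 0.19 for FOXA2. In the EEM they were -0.07 to 0.24 for GATA4, -0.22 to 0.18 for SOX17, -0.17 to 0.24 for FOXA1, -0.14 to 0.12 for FOXA2 and -0.15 to 0.13 for HNF4A. Between tissues SOX7 ran from -0.21 to 0.08. In the interaction, GATA4 ran from -0.42 to 0.02, FOXA1 from -0.58 to 0.16 and SOX7 from -0.42 to 0.09.

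Depth limits SOX7 above all, since 9 counts in a library already carry a large counting error.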

Other observations

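Genes that mark particular regions of endoderm were counted as well. Of 9 signals of the anterior hypoblast, CER1 (7.06), LEFTY2 (6.27), SFRP5 (5.34) and SFRP1 (4.63), secreted antagonists of Nodal, BMP and Wnt signalling, were higher in the ED than in the EEM on the log2 scale. Between procedures in the ED, SFRP1 was lower in IVP (-1.36, SE 0.41, adjusted p = 0.0448 by edgeR) and SHISA2 higher (1.17, SE 0.34, adjusted p = 0.0429). Over the alternatives SFRP1 reached an adjusted p of 0.3 and SHISA2 of 0.819, and with XIST as a covariate SFRP1 was called (adjusted p = 0.0232) and SHISA2 was not (adjusted p = 0.495, with 0.87 among embryos with XIST under 1 CPM). In the EEM, 0 of 6 were called by edgeR, 1 by DESeq2 and 0 by limma, with 1 at an unadjusted p under 0.05. Of the definitive endoderm and gut genes, PDX1, a homeobox factor of pancreas and duodenum, was higher in IVP in the ED (3.34, SE 0.48, adjusted p = 0.000107) and in the EEM (2.76, SE 0.39, adjusted p = 9.98e-05), with XIST as a covariate as well (adjusted p = 0.0318 and 0.0054). CDX1, a hindgut and streak factor, was lower in IVP in the ED (-3.26, SE 0.68, adjusted p = 0.00477). Between tissues 6 of 13 were higher in the ED, among them FABP1 (5.95), CDX1 (5.41), SHH (3.70) and CXCR4 (2.52). CER1, LEFTY2, SFRP5, FABP1 and CDX1 had at most 4 counts in any EEM library, so that the sizes of their fitted tissue differences depend on the prior count.

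Markers of the other cell types that a piece could hold were counted in the same way. In the ED, 10 of 16 streak and mesoderm genes were lower in IVP and 0 higher, led by APLNR (-6.58), MESP2 (-4.45), MIXL1 (-2.21) and FOXF1 (-3.75), and 15 of 16 were higher in the ED than in the EEM. In the EEM SNAI2 was lower (-2.17, adjusted p = 0.0333). Of the epiblast genes, PRDM14 (-1.95) and POU5F1 (-1.72) were lower in the ED of IVP embryos, 2 of 9 tested, and LIN28B was higher in the EEM (1.10). LIN28B was not called with XIST as a covariate (adjusted p = 0.186) and gave 0.89 among embryos with XIST under 1 CPM. Between tissues 8 of 10 epiblast genes were higher in the ED and 1 in the EEM. Of 8 heart genes TBX5 (-2.48) and NKX2-5 (-1.85) were lower in the ED of IVP embryos, and TBX5 in the EEM (-2.86), 1 of 5. With XIST as a covariate none of these was called (adjusted p = 0.0932 for TBX5 and 0.149 for NKX2-5 in the ED, and 0.234 for TBX5 in the EEM), with -1.79, -1.50 and -1.97 among embryos with XIST under 1 CPM. Of 9 heart genes 3 were higher in the ED than in the EEM. Of 11 endothelial and blood genes, FLI1 (at most 1 count in any IVP library, against a mean of 2.96 CPM in IVV), KDR (-5.10) and LMO2 (-2.98) were lower in the ED of IVP embryos and 2 were higher, with SOX18 alone called in the EEM, and 4 of 12 were higher in the ED than in the EEM. Of 17 trophoblast genes TKDP4 was lower in the ED of IVP embryos (-1.41, and with XIST as a covariate not called, adjusted p = 0.67, with -0.63 among embryos with XIST under 1 CPM), and 0 were called in the EEM by edgeR, DESeq2 or limma, with 1 at an unadjusted p under 0.05. Between tissues 6 were higher in the EEM and TKDP4 in the ED (2.32). Of the uterine genes MUC1 was higher in the ED of IVP embryos (1.10), 1 of 6. MUC1 was not called with XIST as a covariate (adjusted p = 0.278) and gave 1.08 among embryos with XIST under 1 CPM. In the EEM 0 of 5 were called by edgeR, 1 by DESeq2 and 0 by limma, with 2 at an unadjusted p under 0.05, and between tissues 0 of 6 were called by edgeR, 1 by DESeq2 and 0 by limma, with 2 at an unadjusted p under 0.05. Of the maternal blood genes, 0 of 2 in the ED and 0 of 1 in the EEM were called between procedures by edgeR, with 2 and 1 at an unadjusted p under 0.05 and 1 and 0 called by DESeq2, and CD79A was higher in the ED than in the EEM (2.40). Their part in the levels of the 8 factors was not tested beyond the covariates given above.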
